A study of Mus musculus with 6 samples.

Results

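The enzymes that add methyl groups to histone lysines, or remove them, were examined in mouse embryonic stem (ES) cells labelled as Alkbh1 knockout (KO) and in wild type (WT) ES cells. Genes were taken by name: the Kdm, Setd, Kmt2, Ehmt, Suv39h, Suv420h, Nsd1, Whsc1, Ash1l, Dot1l, Smyd, Setmar, Jmjd, Phf2 and Phf8 genes with a completed test in the authors' deposited table. Some genes of these families are not analysed here. This gave 54 genes of 14095 tested, with 31 on the methyltransferase side and 22 on the demethylase side. The remaining gene, Jmjd7-pla2g4b, is a readthrough transcript and was put on neither side. A further gene with a matching name, Kdm4d, was not tested there, with 0.111 FPKM in KO and 0.102 FPKM in WT in the authors' deposited table.

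Histone lysines can carry methyl groups that mark active promoters and enhancers (H3K4), transcribed gene bodies (H3K36 and H3K79) or silent chromatin (H3K9, H3K27 and H4K20). Writers hold a SET domain, except Dot1l, and take the methyl group from S-adenosylmethionine. Most erasers are JmjC dioxygenases, which use iron and 2-oxoglutarate, as the AlkB family to which Alkbh1 belongs also does. Kdm1a and Kdm1b are flavin-dependent amine oxidases instead. In ES cells, these enzymes keep developmental genes silent yet ready for activation.

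The series held 6 libraries of TT2 ES cells on a C57BL6 x CBA background, at passage 5 and cultured without feeder cells. Of these, 4 were Alkbh1 KO, with 2 libraries from each of 2 clones, and 2 were wild type. Each gene had a single FPKM value (a fragment count corrected for transcript length and library depth) for KO and another for WT, so levels carry no SD and the depth is unknown. Clone and genotype cannot be told apart, and the labels do not say which part of Alkbh1 was deleted or whether libraries came from separate cultures. The p and q are those of the authors' deposited table, and a call means a q under 0.05. Alkbh1 stood at 18.1 FPKM in KO and 33.9 FPKM in WT in the authors' deposited table, with a log2 fold change of -0.90 (q = 0.0943), so the targeted gene was not called. Summed over all tested genes, FPKM came to 624340 in KO and 981679 in WT. Had the sums been made equal, every log2 fold change below would be 0.65 higher. The median over all tested genes would then be 0.59, with 11454 of 14095 above 0. Of 9 ES cell markers, 8 were tested and were abundant, with a summed level of 4130 FPKM in KO and 6873 FPKM in WT. Of these 8, 6 were called lower (4 of them also below 0 with equal sums) and none higher. Among all tested genes with a mean level of 20 FPKM or more, 60.6% were called lower and 4.31% higher. Relative to the median of tested genes in the same decile by level, the median over the 8 markers was 0.05, with 4 above 0. Fibroblast or feeder markers (4 of 6 tested, 3 called higher and 1 lower) summed to 11.3 FPKM in KO and 7.78 FPKM in WT. The higher ones were Pdgfrb (0.895 FPKM in KO and 0.318 FPKM in WT), Col1a1 (0.664 FPKM in KO and 0.322 FPKM in WT) and Thy1 (9.39 FPKM in KO and 6.43 FPKM in WT), and the lower one was Twist1 (0.321 FPKM in KO and 0.707 FPKM in WT), in the authors' deposited table. The collagen genes Col1a2 and Col3a1, which were not tested, stood at 0.0383 and 0.0131 FPKM in KO, and in WT at 0.0416 FPKM for Col1a2 and at a listed 0 for Col3a1, in the authors' deposited table. Trophoblast markers (5 of 6 tested, 4 higher and 1 lower) summed to 8.98 FPKM in KO and 7.0 FPKM in WT, and extraembryonic endoderm markers (2 of 6 tested, 1 higher and 1 lower) to 1.03 FPKM in KO and 1.34 FPKM in WT. The part of such cells in the values below was not tested.

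Of the 54 enzyme genes, 16 were called higher and 11 lower in KO, and 27 were not called. The called share of 50.0% was close to that of all tested genes (50.8%). Higher calls made up 29.6% of the enzyme genes and 22.4% of all tested genes, and lower calls 20.4% of the enzyme genes and 28.4% of all tested genes. Differences of at least 2-fold were called for 6 genes, all higher (Kdm6b, Dot1l, Kmt2c, Kdm4b, Phf2 and Kmt2e), and for no gene lower, where 9.04% of all tested genes were so called higher and 5.36% lower. The median log2 fold change was 0.12 over the enzyme genes and -0.06 over all tested genes. With equal sums, 9 of the 11 lower genes would lie above 0, as would 1625 of the 4000 lower genes among all tested, leaving Suv39h2 at -0.30 and Jmjd6 at -0.05.

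Methyltransferases and demethylases were then set side by side. Of 31 methyltransferase genes, 10 were higher, 8 lower and 13 not called. Their log2 fold changes had a median of 0.08 and a range from -0.95 (Suv39h2) to 1.36 (Dot1l). Of 22 demethylase genes, 6 were higher, 3 lower and 13 not called, with a median of 0.20 and a range from -0.70 (Jmjd6) to 1.40 (Kdm6b). The medians differed by -0.13, methyltransferases minus demethylases. The genes are not replicates of a condition, so no test was made between the sides. Lower calls made up 25.8% of methyltransferases and 13.6% of demethylases, beside 28.4% of all tested genes. Among the 40 genes whose proteins are established histone lysine enzymes, 14 were higher (35.0%, beside 22.4% of all tested genes) and 5 lower (12.5%). All 5 lower ones were writers (Suv39h2, Setd8, Suv420h1, Smyd1 and Smyd2), and 0 of 17 established erasers were called lower. Lower calls made up 21.7% of the 23 established writers, under the 28.4% of all tested genes. Higher calls made up 34.8% of established writers and 35.3% of established erasers. With equal sums, only Suv39h2 of the 5 lower writers would stay below 0. In the 17 established erasers, an unadjusted p under 0.05 with a fold change below 0 was found for 1 gene, Kdm1a. Smyd1 and Smyd2 are counted as established, and the 3 lower genes of the demethylase side (Jmjd6, Kdm8 and Jmjd4) are not. This contrast between writers and erasers therefore rests on that classification.

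**Figure D1:**
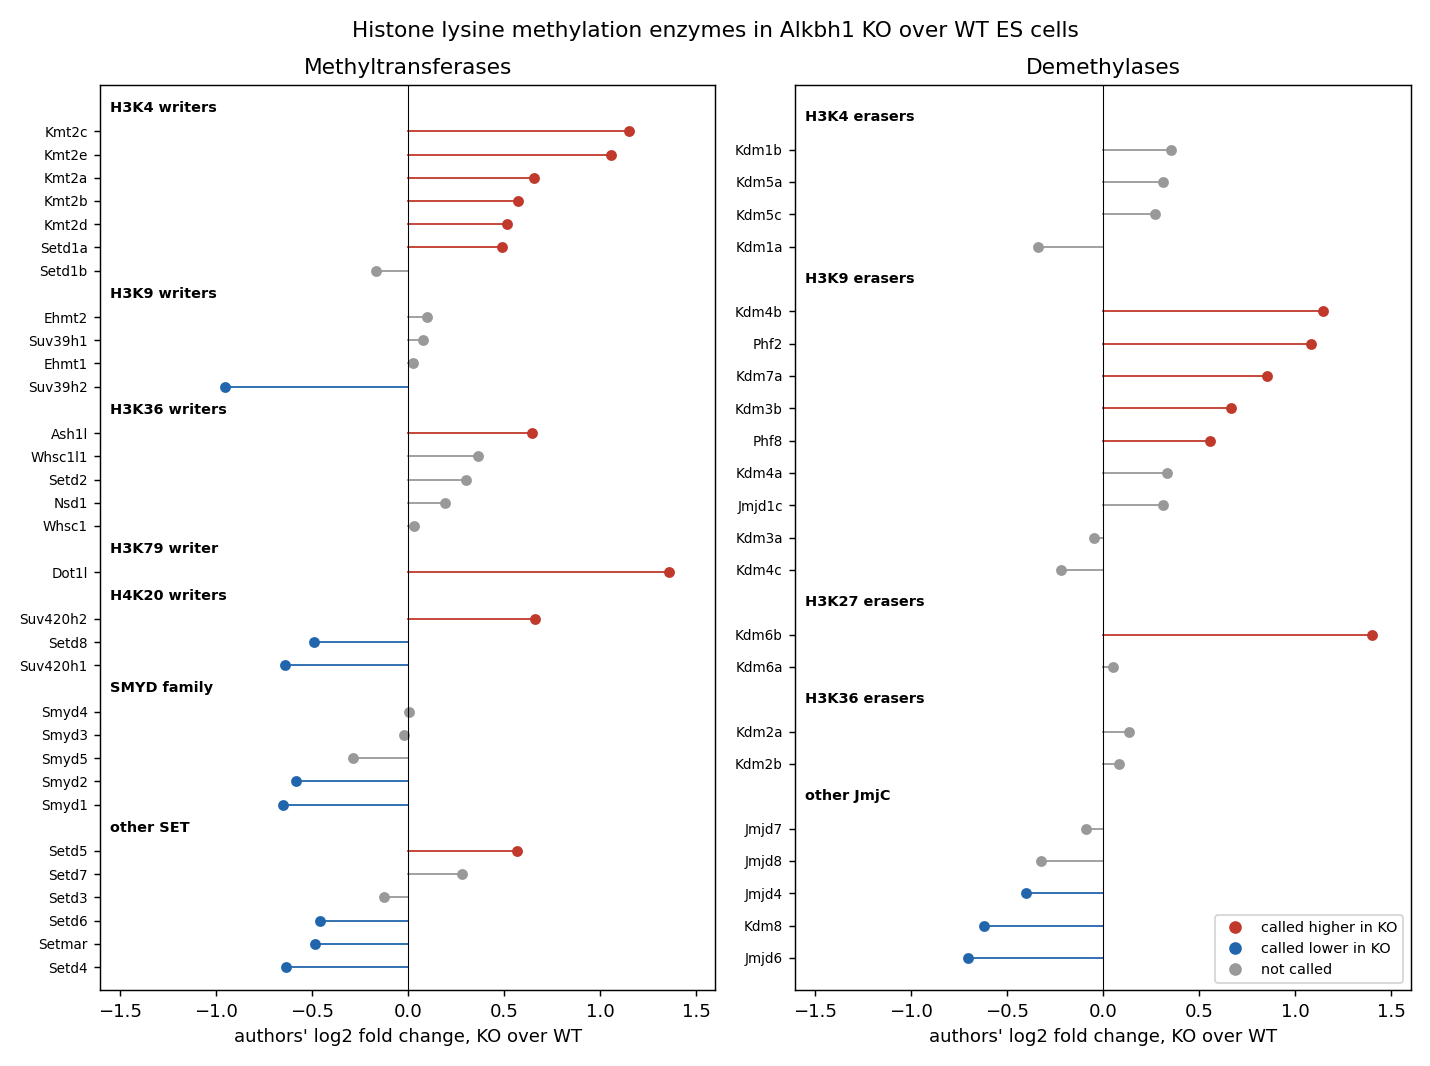
Log2 fold change of KO over WT for each methyltransferase (left) and demethylase (right), grouped by the residue or family, from the authors' deposited table; each point is 1 gene, and red, blue and grey mark genes called higher, called lower and not called. All 5 Kmt2 genes lie between 0.52 and 1.15, while the 5 other JmjC genes all lie below 0.

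The upstream sequences of 4 genes are shown, namely the 2 highest and the 2 lowest fold changes among called genes with a single start in the RefSeq table for GRCm38.p6. Each is the 250 bases before the transcript start, 5′ to 3′ on the gene's strand, with every CpG dinucleotide in capitals. They are shown because the CXXC domains of Kmt2a, Kmt2b, Kdm2a and Kdm2b bind unmethylated CpG. Only CpG in the reference sequence was counted, and its methylation was not measured.
Dot1l (chr10:80754953-80755202, + strand): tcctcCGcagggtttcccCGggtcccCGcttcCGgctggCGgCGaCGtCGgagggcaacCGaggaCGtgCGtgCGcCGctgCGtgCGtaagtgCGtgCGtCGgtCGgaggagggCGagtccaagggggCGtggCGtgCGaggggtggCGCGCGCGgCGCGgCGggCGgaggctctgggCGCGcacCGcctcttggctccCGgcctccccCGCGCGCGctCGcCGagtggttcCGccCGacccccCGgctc
Kmt2c (chr5:25498784-25499033, - strand): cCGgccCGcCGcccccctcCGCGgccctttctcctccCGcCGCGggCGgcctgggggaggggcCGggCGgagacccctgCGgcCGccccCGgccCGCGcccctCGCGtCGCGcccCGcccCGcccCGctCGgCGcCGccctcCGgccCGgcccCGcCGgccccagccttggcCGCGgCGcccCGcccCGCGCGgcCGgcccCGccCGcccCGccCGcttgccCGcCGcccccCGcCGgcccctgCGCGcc
Suv39h2 (chr2:3474987-3475236, - strand): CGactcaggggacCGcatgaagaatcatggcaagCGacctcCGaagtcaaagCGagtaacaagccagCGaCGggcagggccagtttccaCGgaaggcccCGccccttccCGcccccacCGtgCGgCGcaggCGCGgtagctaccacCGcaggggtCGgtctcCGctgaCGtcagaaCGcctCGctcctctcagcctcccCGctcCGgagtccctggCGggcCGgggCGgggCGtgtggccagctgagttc
Jmjd6 (chr11:116843450-116843699, - strand): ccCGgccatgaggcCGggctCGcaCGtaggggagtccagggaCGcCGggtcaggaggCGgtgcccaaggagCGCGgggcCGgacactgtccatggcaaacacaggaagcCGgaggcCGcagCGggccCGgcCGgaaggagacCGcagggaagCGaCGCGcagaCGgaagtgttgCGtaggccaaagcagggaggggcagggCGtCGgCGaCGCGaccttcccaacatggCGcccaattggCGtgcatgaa

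These windows held 44 CpG for Dot1l and 48 for Kmt2c, which rose, against 27 for Suv39h2 and 28 for Jmjd6, which fell. Windows were found for 41 of the 54 genes, of which 35 (85.4%) held at least 10 CpG. The same was true of 71.3% of the 11022 tested genes with a window. By call, the median was 27.5 CpG over 10 higher genes, 18 over 11 lower genes and 16 over 20 genes not called, beside 15 over the tested genes. Among the higher genes the count ran from 0 (Setd5) to 56 (Kdm7a), and among the lower ones from 2 (Smyd1) to 34 (Smyd2), so the ranges overlap widely. Where a gene has several starts the first in the table was used.

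FPKM is scaled to transcript length, so levels of different enzymes can be ordered. Kdm1a was the most abundant of all 54 in both genotypes, at 98.0 FPKM in KO and 124 FPKM in WT in the authors' deposited table, and held 25.1% of the summed demethylase level in KO and 29.0% in WT. It was followed on the demethylase side by Jmjd6 and Kdm3a in both genotypes. The methyltransferases had a flatter top, led by Setd3 (43.4 FPKM) and Setd6 (43.4 FPKM) in KO and by Setd6 (59.6 FPKM) and Smyd2 (54.6 FPKM) in WT in the authors' deposited table. At the low end stood Smyd1, at 1.03 FPKM in KO and 1.61 FPKM in WT, and Phf2, at 1.25 FPKM in KO and 0.589 FPKM in WT in the authors' deposited table. Summed over each side, methyltransferases came to 447 FPKM in KO and 472 FPKM in WT, and demethylases to 391 FPKM in KO and 427 FPKM in WT. The KO sums are 94.5% and 91.5% of the WT sums, and that of all tested genes 63.6%. That last share moves with level, being 121% for tested genes under 5 FPKM, 94.5% for those of 5 to 20 FPKM and 61.5% for those of 20 FPKM or more.

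**Figure D2:**
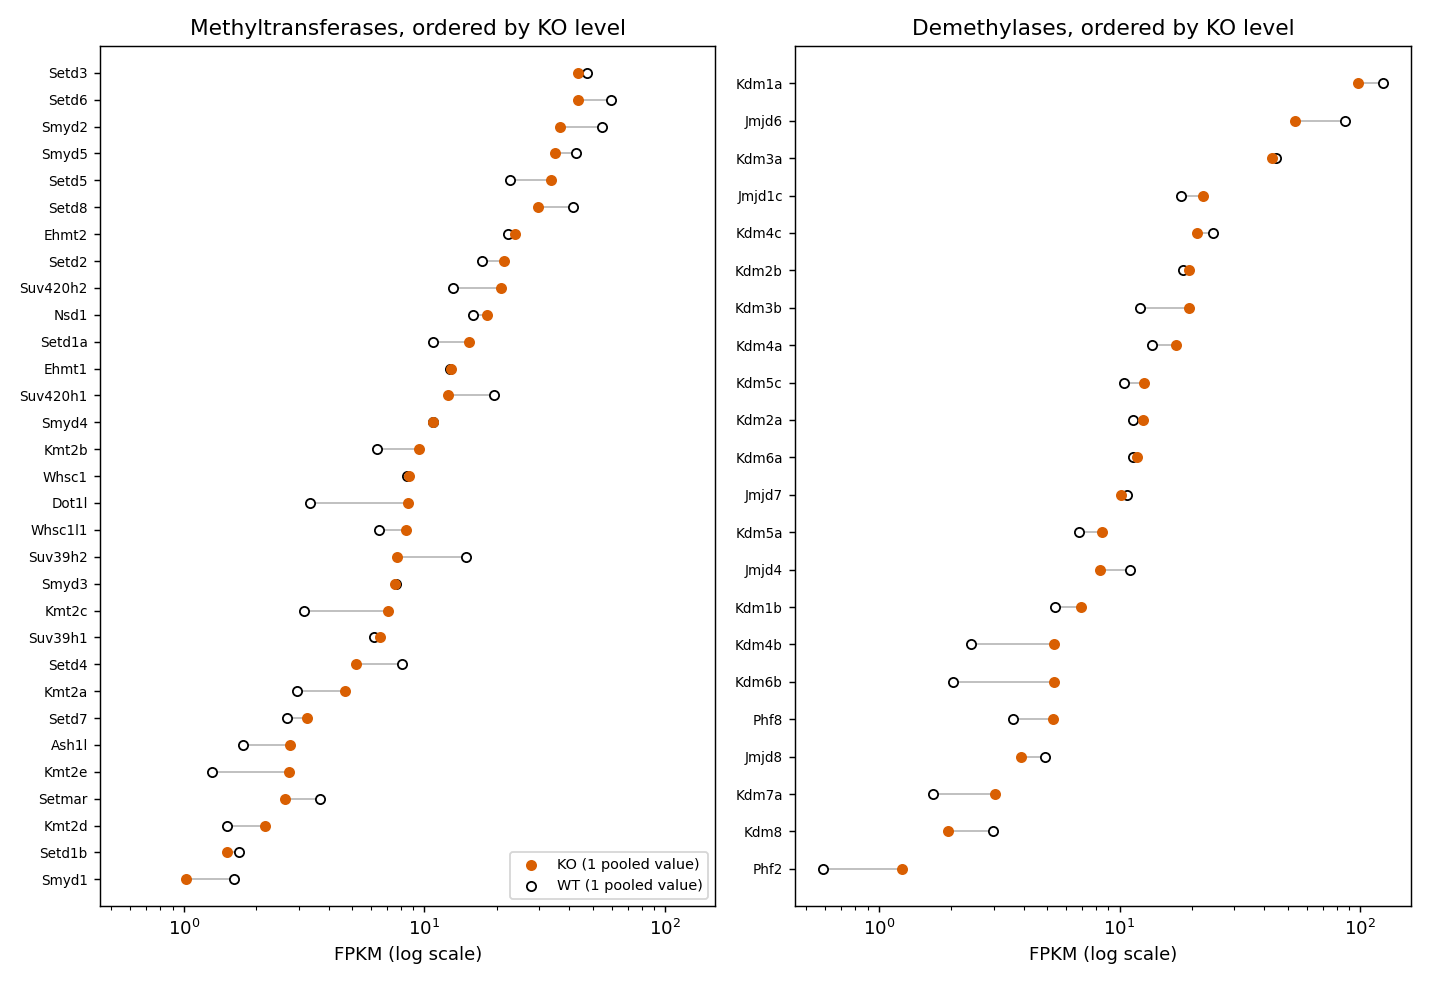
FPKM of each methyltransferase (left) and demethylase (right) in KO (filled) and WT (open) on a log axis, ordered by KO level, with 1 pooled value per genotype and no error bars. Most genes span 1 to 60 FPKM, with Kdm1a at 98.0 FPKM in KO and 124 FPKM in WT above all others.

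Most genes grouped as writers of H3K4 rose, a group that counts Kmt2e and leaves out Setd7, both described below. Of 7 genes, 6 were called higher and none lower, and the median of their log2 fold changes was 0.57. All 7 have transcripts of 6 kb or more, and 50.0% of tested genes of that length were called higher, beside 22.4% of all tested genes. All 5 Kmt2 genes, the MLL family, were among them. Kmt2a, which acts at promoters of developmental genes, stood at 4.68 FPKM in KO and 2.96 FPKM in WT in the authors' deposited table, a log2 fold change of 0.66 (q = 0.000560). Its close relative Kmt2b, which methylates bivalent promoters in ES cells, reached 9.44 FPKM in KO, against 6.35 FPKM in WT in the authors' deposited table (0.57, q = 0.000881). Kmt2c and Kmt2d place H3K4 monomethylation at enhancers. Kmt2c (chromosome 5, 24777611 to 25004601, mm9) rose 2.22-fold, with 7.04 FPKM in KO and 3.17 FPKM in WT in the authors' deposited table (q = 0.000206). Kmt2d rose less, to 2.17 FPKM in KO against 1.51 FPKM in WT in the authors' deposited table (0.52, q = 0.00534). Kmt2e, a divergent member with no established methyltransferase activity, had 2.72 FPKM in KO and 1.31 FPKM in WT in the authors' deposited table (1.06, q = 0.0123), but its region is joined with Srpk2, so its reads are uncertain. Setd1a and Setd1b are the catalytic subunits of the SET1 complexes, which place most promoter H3K4 trimethylation. Setd1a, the more abundant of this pair, rose to 15.3 FPKM in KO against 10.9 FPKM in WT in the authors' deposited table (0.49, q = 0.00570). Setd1b was the exception of the group, at 1.51 FPKM in KO and 1.70 FPKM in WT in the authors' deposited table (-0.17, q = 0.464).

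Of 11 genes for non-catalytic COMPASS and MLL partners of these writers, none was called higher and 5 were lower (Dpy30, Ash2l, Psip1, Cxxc1 and Wdr82), with a median of -0.10. Lower calls made up 45.5% of these partners, beside 28.4% of all tested genes and 60.6% of those of 20 FPKM or more. Relative to tested genes in the same decile by level, the median over the 11 was 0.06, with 7 of the 11 above 0. With equal sums 4 of the 5 would lie below 0, Cxxc1 by -0.0021, and Wdr82 would lie above. Dpy30, a small core subunit, fell to 212 FPKM in KO against 468 FPKM in WT in the authors' deposited table (-1.14). Ash2l, another core subunit, fell to 185 FPKM in KO against 332 FPKM in WT in the authors' deposited table (-0.84). Wdr5 and Rbbp5, which complete the shared core, were not called, Wdr5 with 89.8 FPKM in KO and 91.2 FPKM in WT and Rbbp5 with 42.8 FPKM in KO and 35.8 FPKM in WT in the authors' deposited table. These 4 core genes had higher levels than any Kmt2 gene in both genotypes. The tested genes in the highest decile by level, which holds Dpy30, Ash2l and Wdr5, had a median of -0.72.

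None of the 4 erasers of H3K4 analysed here was called, beside 50.8% of all tested genes. Among these erasers 1, Kdm1a, had an unadjusted p under 0.05. Kdm1a, the subunit of the CoREST complex that removes mono- and dimethylation, had a log2 fold change of -0.34 and missed the threshold narrowly in the authors' deposited table (p = 0.0255, q = 0.0502). Its relative Kdm1b had 6.89 FPKM in KO and 5.39 FPKM in WT in the authors' deposited table (0.35, q = 0.626), in a region joined with Dek. Kdm5a and Kdm5c remove H3K4 trimethylation. Kdm5a stood at 8.42 FPKM in KO and 6.78 FPKM in WT (0.31, q = 0.188), and the X-linked Kdm5c at 12.6 FPKM in KO and 10.5 FPKM in WT (0.27, q = 0.125), both in the authors' deposited table. The Kdm5a region is joined with Ccdc77. Of 9 CoREST partners of Kdm1a, 1 was higher (Rcor1) and 1 lower (Hdac2), with 7 not called. Over all tested genes, 22.4% were higher and 28.4% lower. The scaffold gene Rcor1 reached 9.10 FPKM in KO against 3.12 FPKM in WT in the authors' deposited table (1.55, q = 0.000206), and the deacetylase gene Hdac2 fell to 103 FPKM in KO against 163 FPKM in WT in the authors' deposited table (-0.66, q = 0.000206, and -0.0035 with equal sums).

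Among the writers of H3K9 analysed here, which mark heterochromatin and silenced genes, 1 of 4 was called, beside 50.8% of all tested genes. Suv39h2 (chromosome 2, 3341402 to 3392258, mm9, as all positions of the table), one of the pair that trimethylates pericentric heterochromatin, fell to 7.70 FPKM in KO against 14.9 FPKM in WT in the authors' deposited table. Its log2 fold change of -0.95 (q = 0.0211) was the lowest of all 54 genes, and it stayed below 0 with equal sums. The region is joined with Dclre1c, so reads of these overlapping genes are uncertain. Its X-linked partner Suv39h1 stood at 6.53 FPKM in KO and 6.19 FPKM in WT in the authors' deposited table (0.08, q = 0.745). Ehmt1 and Ehmt2, also called GLP and G9a, form the heterodimer that dimethylates H3K9 in euchromatin. Ehmt1 had 12.9 FPKM in KO and 12.7 FPKM in WT, and Ehmt2 had 23.7 FPKM in KO and 22.1 FPKM in WT, with log2 fold changes of 0.02 and 0.10 in the authors' deposited table.

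Of 9 partners and readers of H3K9 methylation, 5 were lower (Cbx3, Cbx1, Zfp644, Trim28 and Cdyl) and 1 higher (Wiz, 0.38, q = 0.0489 in the authors' deposited table). Over all tested genes, 28.4% were lower and 22.4% higher. Cbx3, which encodes a heterochromatin protein HP1, fell to 155 FPKM in KO against 337 FPKM in WT in the authors' deposited table (-1.12). Cbx1, another HP1 gene, fell to 142 FPKM in KO against 227 FPKM in WT in the authors' deposited table (-0.67). With equal sums only Cbx3 and Cbx1 of these 5 would stay below 0. The median over the 9 was -0.55, but 0.14 relative to tested genes in the same decile by level, with 6 of the 9 above 0 on that measure.

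Of 9 erasers of H3K9, 5 were higher and none lower, beside 22.4% higher and 28.4% lower over all tested genes, with a median of 0.56. Kdm4b, a demethylase of H3K9 and H3K36 trimethylation, rose 2.21-fold, to 5.37 FPKM in KO against 2.42 FPKM in WT in the authors' deposited table (q = 0.000206). Its paralogues were not called, with Kdm4a at 17.1 FPKM in KO and 13.6 FPKM in WT (0.33, q = 0.0690) and Kdm4c at 21.1 FPKM in KO and 24.5 FPKM in WT (-0.22, q = 0.231) in the authors' deposited table. All members of the PHD finger group were called. Phf2, with the lowest WT level of the 54 genes, rose 2.12-fold, with 1.25 FPKM in KO and 0.589 FPKM in WT in the authors' deposited table (q = 0.000206). Kdm7a, which also removes H3K27 methylation, reached 3.04 FPKM in KO against 1.68 FPKM in WT in the authors' deposited table (0.86, q = 0.000206), in a region joined with 4930599N23Rik. The X-linked Phf8 reached 5.32 FPKM in KO against 3.62 FPKM in WT in the authors' deposited table (0.56, q = 0.00348). Members of the Kdm3 group, which remove mono- and dimethylation, split. Kdm3b rose to 19.4 FPKM in KO against 12.2 FPKM in WT in the authors' deposited table (0.67, q = 0.000206). Jmjd1c, a relative that helps maintain ES cells, was not called, at 22.3 FPKM in KO and 17.9 FPKM in WT in the authors' deposited table (0.31, q = 0.0703). Kdm3a, a target of hypoxia-inducible factor and a regulator of ES cell self-renewal, stood at 43.1 FPKM in KO and 44.5 FPKM in WT in the authors' deposited table (-0.05, q = 0.819).

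Removal of H3K27 trimethylation, the Polycomb mark, depends on Kdm6a and Kdm6b. Kdm6b (chromosome 11, 69212019 to 69227177, mm9) had the highest fold change of all 54 genes, with 5.37 FPKM in KO and 2.04 FPKM in WT in the authors' deposited table, a 2.63-fold rise (q = 0.000206). Kdm6a, which is X-linked and part of the Kmt2c and Kmt2d complexes, stood at 11.8 FPKM in KO and 11.4 FPKM in WT in the authors' deposited table (0.05, q = 0.803). Ezh1 and Ezh2 write this mark and fall outside the name rule, as do 5 other listed writers in the table. Of the 6 of these that were tested, 2 were higher and 1 lower, beside 22.4% higher and 28.4% lower over all tested genes. The calls were Ezh1, higher at 0.67, and Ezh2, lower at -0.56 in the authors' deposited table (q = 0.000206 for each), and Ezh2 at 0.09 with equal sums. Hr, a JmjC gene outside the name rule, rose to 1.85 FPKM in KO against 0.598 FPKM in WT in the authors' deposited table (1.63, q = 0.000206). The other higher writer was Prdm2, at 0.41 in the authors' deposited table (q = 0.0182). Of 3 tested JmjC genes outside the rule, Hr was the 1 called higher and Mina, a ribosomal hydroxylase gene, the 1 called lower, at -0.54 in the authors' deposited table (q = 0.0376, and 0.11 with equal sums).

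Of 5 writers of H3K36, 1 was higher and none lower, and all 5 lay above 0. Over all tested genes, 22.4% were higher and 28.4% lower. All 5 have transcripts of 6 kb or more, and 50.0% of tested genes of that length were higher. Relative to tested genes in the same decile by length, the median over the 5 was -0.14, with 1 above 0. Ash1l, which opposes Polycomb silencing, reached 2.75 FPKM in KO against 1.76 FPKM in WT in the authors' deposited table (0.64, q = 0.000881). Setd2, which places H3K36 trimethylation behind RNA polymerase II, had 21.3 FPKM in KO and 17.3 FPKM in WT in the authors' deposited table (0.30, q = 0.0904). The dimethylating NSD enzymes were not called. Nsd1 stood at 18.1 FPKM in KO and 15.8 FPKM in WT, Whsc1 at 8.60 FPKM in KO and 8.42 FPKM in WT, and Whsc1l1 at 8.35 FPKM in KO and 6.49 FPKM in WT in the authors' deposited table (q from 0.0965 to 0.892). The erasers Kdm2a and Kdm2b, CXXC proteins of which Kdm2b brings Polycomb complexes to CpG islands, were also not called. Kdm2a had 12.5 FPKM in KO and 11.4 FPKM in WT, and Kdm2b had 19.5 FPKM in KO and 18.4 FPKM in WT, in the authors' deposited table (0.13 and 0.08).

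Dot1l, the sole known writer of H3K79 methylation, rose 2.56-fold. It lies on chromosome 10 (80217950 to 80257092, mm9) and had 8.54 FPKM in KO and 3.33 FPKM in WT in the authors' deposited table (log2 fold change 1.36, q = 0.000206). Of 6 genes of its elongation partners, 2 were higher (Aff1 and Aff4), none lower, and all 6 lay above 0. Over all tested genes, 22.4% were higher and 28.4% lower, and 50.0% of those with transcripts of 6 kb or more were higher. Relative to tested genes in the same decile by length, the median over these 6 partners was 0.0067, with 3 of the 6 above 0. Aff1, a scaffold of elongation complexes, reached 7.31 FPKM in KO against 3.65 FPKM in WT in the authors' deposited table (log2 fold change 1.003). Aff4 reached 31.7 FPKM in KO against 23.4 FPKM in WT in the authors' deposited table (0.43, q = 0.0110).

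All 3 writers of H4K20 were called, in opposite directions, beside 50.8% of all tested genes called (22.4% higher and 28.4% lower). Setd8, which places monomethylation and is needed for cell division, fell to 29.5 FPKM in KO against 41.5 FPKM in WT in the authors' deposited table (-0.49, q = 0.00546). Suv420h1 (chromosome 19, 3767420 to 3818303, mm9), which extends it to dimethylation, fell to 12.5 FPKM in KO against 19.4 FPKM in WT in the authors' deposited table (-0.64, q = 0.000881). Suv420h2 (chromosome 7, 4691728 to 4699116, mm9), which makes trimethylation at heterochromatin, rose to 20.8 FPKM in KO against 13.1 FPKM in WT in the authors' deposited table (0.66, q = 0.000390). With equal sums Setd8 and Suv420h1 would lie at 0.16 and 0.01, above 0, and the order of the 3 fold changes would be the same.

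In the SMYD family, 2 of 5 genes were lower and none higher, which is near the 28.4% of all tested genes that were called lower. By transcript length that share was 37.4% under 3 kb, 21.2% from 3 to 6 kb and 11.5% at 6 kb or more. The family has genes in each of these classes, with a median of 3361 nt. Smyd2, which methylates p53 and other proteins, fell to 36.4 FPKM in KO against 54.6 FPKM in WT in the authors' deposited table (-0.58, q = 0.00104, and 0.07 with equal sums). Smyd1, a regulator of heart and skeletal muscle, fell to 1.03 FPKM in KO against 1.61 FPKM in WT in the authors' deposited table (-0.65, q = 0.00881, and 0.0037 with equal sums). Smyd3 had 7.53 FPKM in KO and 7.63 FPKM in WT, Smyd4 had 10.9 FPKM in KO and 10.8 FPKM in WT, and Smyd5 had 35.0 FPKM in KO and 42.6 FPKM in WT in the authors' deposited table, none called.

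The remaining SET genes encode proteins whose main substrates are not histones or are not settled. Setd5, a chromatin regulator of neural development, rose to 33.6 FPKM in KO against 22.7 FPKM in WT in the authors' deposited table (0.57, q = 0.00104). Setd6, which methylates the NF-kappaB subunit RelA, fell to 43.4 FPKM in KO against 59.6 FPKM in WT in the authors' deposited table (-0.46, q = 0.00869). Setd4 fell to 5.18 FPKM in KO against 8.04 FPKM in WT in the authors' deposited table (-0.63, q = 0.00231). Setmar, which in primates is fused to a transposase, was just inside the threshold at 2.64 FPKM in KO and 3.69 FPKM in WT in the authors' deposited table (-0.48, q = 0.0431). With equal sums these 3 lower genes would lie above 0, at 0.19, 0.02 and 0.17. Setd3, an actin histidine methyltransferase, had 43.4 FPKM in KO and 47.3 FPKM in WT in the authors' deposited table and was not called. Setd7, which methylates H3K4 and many other proteins, had 3.26 FPKM in KO and 2.68 FPKM in WT in the authors' deposited table (0.28, q = 0.160), in a region joined with 5031434O11Rik.

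The 5 other JmjC genes encode hydroxylases or proteins of unsettled activity, and all lay below 0 as deposited, with 3 called lower. Their median longest transcript was 2268 nt, and 28.4% of all tested genes, and 37.4% of those under 3 kb, were called lower. Relative to tested genes in the same decile by length, the median over the 5 was -0.41, with 1 above 0. Jmjd6, a lysyl hydroxylase of splicing factors, fell to 53.3 FPKM in KO against 86.8 FPKM in WT in the authors' deposited table (-0.70, q = 0.000206). Kdm8, first described as an H3K36 demethylase and since as an arginyl hydroxylase, fell to 1.94 FPKM in KO against 2.98 FPKM in WT in the authors' deposited table (-0.62, q = 0.00858). Jmjd4, which hydroxylates a translation termination factor, fell to 8.33 FPKM in KO against 11.01 FPKM in WT in the authors' deposited table (-0.40, q = 0.0298). Jmjd7, a lysyl hydroxylase, had 10.1 FPKM in KO and 10.7 FPKM in WT, and Jmjd8, a protein of the endoplasmic reticulum, had 3.91 FPKM in KO and 4.89 FPKM in WT in the authors' deposited table, neither called, the Jmjd7 region being joined with Pla2g4b and the Jmjd8 region with Stub1. With equal sums 4 of the 5 would lie above 0. The readthrough Jmjd7-pla2g4b, which shares the Jmjd7 region, had 1.47 FPKM in KO and 0.713 FPKM in WT in the authors' deposited table (1.05, q = 0.130).

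Ratios within pairs of related enzymes are the same under any common scaling of a genotype. Suv420h2 exceeded Suv420h1 in KO, at a ratio of 1.66, but not in WT, at 0.675, so the more abundant of this pair differed between the genotypes. The ratio of Suv39h2 to Suv39h1 was 1.18 in KO and 2.41 in WT. Kdm6b reached 0.454 of the Kdm6a level in KO and 0.179 in WT, and Kdm4b reached 0.255 of the Kdm4c level in KO and 0.0988 in WT. For these 4 pairs the log2 ratios differed by more than 1 in size between the genotypes. The last depends on the partner, since Kdm4b to Kdm4a stood at 0.313 in KO and 0.178 in WT, a log2 difference of 0.82. Other pairs were close to constant, such as Ehmt2 to Ehmt1 (1.83 in KO and 1.74 in WT) and Kdm2b to Kdm2a (1.56 in KO and 1.61 in WT). With 1 pooled value per genotype these ratios carry no error and were not tested.

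**Figure D3:**
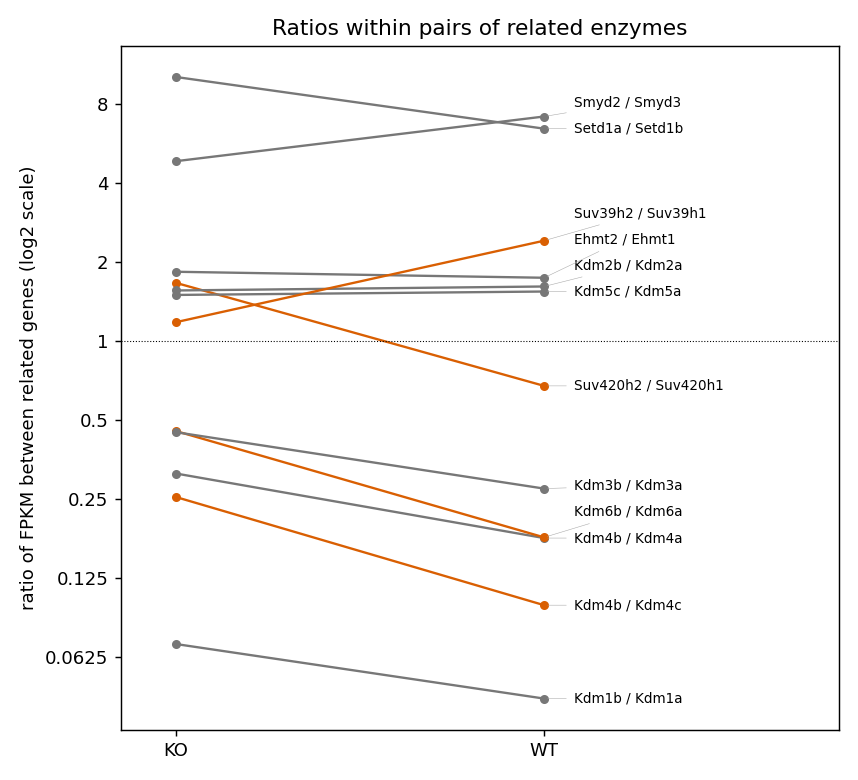
Ratio of FPKM between related enzymes in KO (left) and WT (right) on a log2 axis, 1 line for each of 12 pairs; orange marks the 4 pairs whose log2 ratio differed by more than 1 in size. The line for Suv420h2 over Suv420h1 crosses 1, at 1.66 in KO and 0.675 in WT.

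Summed over residues, the level of H3K4 writers, with Kmt2e and without Setd7, came to 42.8 FPKM in KO and 27.9 FPKM in WT. That of H3K4 erasers came to 126 FPKM in KO and 146 FPKM in WT. The lower eraser sum in KO rests on Kdm1a, which was not called; the other 3 erasers summed to 27.9 FPKM in KO and 22.6 FPKM in WT. The ratio of writers to erasers for H3K4 was 0.340 in KO and 0.191 in WT, and without Kdm1a it was 1.53 in KO and 1.23 in WT. For H3K9 it was lower in KO, at 0.369 against 0.462 in WT, with 50.9 FPKM in KO and 56.0 FPKM in WT for writers and 138 FPKM in KO and 121 FPKM in WT for erasers. Among the writers counted, the lower sum in KO rests on Suv39h2, whose reads are uncertain in its joined region. The other 3 writers counted lay above 0 and were not called. Setdb1 and Setdb2, H3K9 writers outside the name rule, are not in this sum. Setdb1 had 33.7 FPKM in KO and 37.4 FPKM in WT in the authors' deposited table. Setdb2 had 6.46 FPKM in KO and 7.49 FPKM in WT there, and neither was called. For H3K36 the ratio was 1.85 in KO and 1.67 in WT, with Kdm2a and Kdm2b as the only erasers counted. Kdm4b, which acts on both H3K9 and H3K36, and its paralogues Kdm4a and Kdm4c were counted under H3K9 alone. The H3K9 and H3K36 ratios depend on that assignment. These are sums of transcript levels over the tested genes of the name rule, without error, and not measures of enzyme activity.

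Direction followed transcript length among these enzymes, as it did among all genes. The 16 higher genes had a median longest annotated transcript of 6782 nt and the 11 lower genes one of 2389 nt, beside 2916 nt over all tested genes. Of 25 enzyme genes with transcripts of 6 kb or more, 13 were higher and 1 lower (Suv420h1). Of 12 under 3 kb, 1 was higher (Suv420h2) and 7 lower. Among all tested genes, 50.0% of those of 6 kb or more were higher and 11.5% lower, and 13.2% of those under 3 kb were higher and 37.4% lower. Spearman's rho of fold change with length was 0.62 across the 54 genes and 0.33 across 13931 tested genes, given as a description, since all values come from the same libraries. With level, rho was -0.39 across the enzyme genes and -0.55 across the tested genes.

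Set against the median of tested genes in the same decile by length, the median over methyltransferases was -0.14 and that over demethylases -0.13, so both medians changed sign. All 16 higher genes lay above the median of their length decile, as did 3097 of 3149 higher genes among all tested. None of the 11 lower genes did, nor did most lower genes among all tested (60 of 3981 lay above). The 5 Kmt2 genes were all in the longest decile, whose median was 0.44, and exceeded it by 0.07 (Kmt2d) to 0.71 (Kmt2c). Dot1l and Kdm6b exceeded it by 0.91 and 0.95, and Kdm4b lay 1.07 above the median of its decile. Relative to genes of their length, Suv420h2 stood at 0.81 and Suv39h2 at -1.03. In 20 classes by both level and length, the medians were 0.11 for methyltransferases and 0.11 for demethylases. By that measure 15 of the 16 higher genes lay above 0, the exception being Kmt2d at -0.04, as did 2971 of 3149 higher genes among all tested. Of the 11 lower genes 3 lay above 0, as did 609 of 3981 lower genes among all tested. The part of transcript length in these differences was not tested further.

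**Figure D4:**
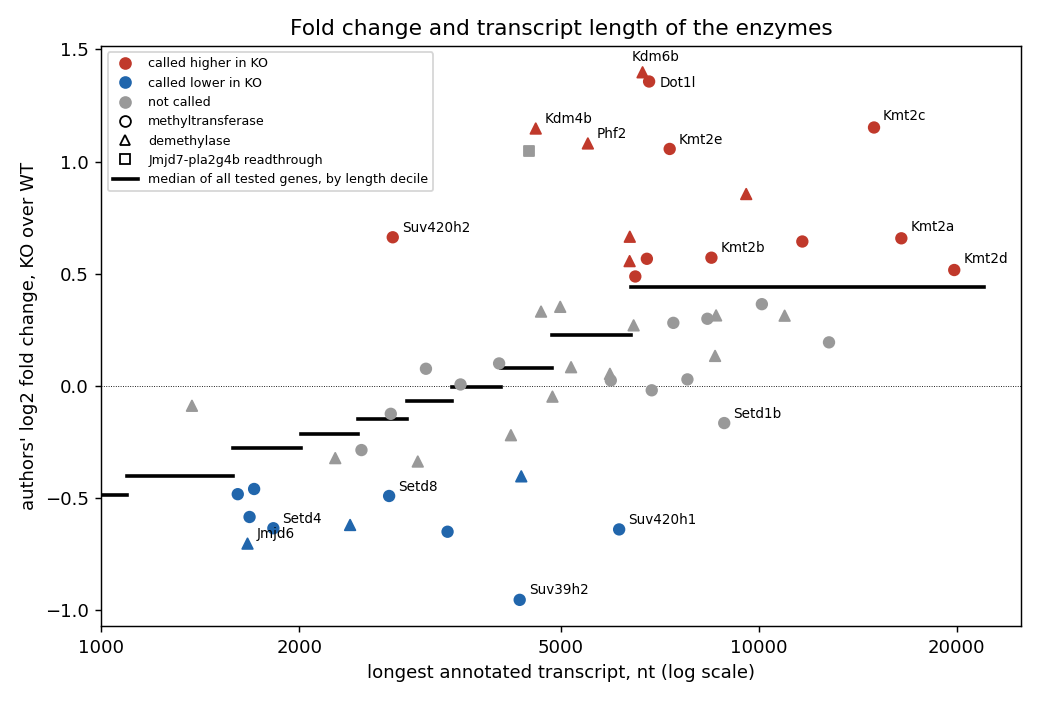
Log2 fold change of KO over WT against the longest annotated transcript (nt, log axis) for the 54 genes; circles, triangles and the square are methyltransferases, demethylases and the readthrough, colours mark the calls, and black bars are medians of all tested genes by length decile (the longest drawn to the edge of the data shown). Points above 6 kb lie mostly above 0, with Dot1l, Kdm6b and Kmt2c far above the bar of 0.44 and Suv420h1 below it.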

How the data were processed

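Total RNA was extracted with a column kit and made into strand-specific mRNA libraries, per the labels' protocols. Reads were aligned to mm9 with TopHat2, per the submitters' processing notes; the sources used here give neither versions nor the gene annotation. The columns of the deposited table are those of Cuffdiff's test between conditions, per the file headers. It holds 1 pooled FPKM value for each genotype, made by the authors, the authors' log2 fold change of KO over WT, a test statistic (a score that was not used here), and the deposited p-value and q-value. The sources used here do not give the scaling between libraries. Recomputing q from the deposited p by Benjamini and Hochberg's method, over all 14095 tests, gave the deposited q with a largest difference of 5.18e-07. The smallest p is 5e-05, shared by 8 of the genes described, which it cannot rank.

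No library has values of its own, so no expression test was run anew. Genes were called where the deposited q was under 0.05, in the direction of the deposited fold change. The 56 tested genes at 0 in 1 condition were left out of medians. Regions joined with another gene, which 9 of the 54 genes have, are named with the gene. Transcript lengths are those of the longest protein-coding GENCODE M21 transcript by symbol or RefSeq synonym (13986 tested genes and all 54), and upstream sequences come from RefSeq on GRCm38.p6. Coordinates of that build were not mixed with the mm9 positions of the table. Calculations used Python 3.11.15 (pandas 2.3.3, NumPy 2.4.6, SciPy 1.17.1) and plots Matplotlib 3.10.9, and the adjustment and decile-relative values were tested on simulated data.

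The genes, lists and groups were chosen with earlier results of these data known. Every gene of the name rule is given; from other lists, at most the 2 called genes with the largest fold change are named, plus those in counts of 5 or fewer. Wdr5, Rbbp5, Setdb1, Setdb2, Col1a2, Col3a1 and the ratio of Kdm4b to Kdm4a were named after their values were seen. Wbp7 and Jhdm1d of the other lists are older names of Kmt2b and Kdm7a and were matched to no separate row.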

Additional observations from a re-analysis of the deposited data

How the results depend on the processing

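No paired analysis was possible because the deposited table holds 1 pooled value per genotype, and for the same reason no library could be left out. Counts were compared within a factor of 1.5 and medians within 0.1. A 2-fold threshold left 6 enzyme genes higher (3 methyltransferases and 3 demethylases) and 0 lower on either side. Equal sums, with the calls kept, put 25 enzyme genes above 0 and 2 below, with 17 methyltransferases above and 1 below and 1 demethylase below, and moved the medians to 0.73 for methyltransferases and 0.86 for demethylases, which the added constant shows. The same scaling put the median of all tested genes at 0.59, with 11454 of 14095 above 0. With established histone lysine enzymes alone, lower calls were 5 in all, 5 for methyltransferases and 0 for demethylases, and the medians 0.19 for methyltransferases and 0.31 for demethylases, with fewer genes. Relative to the decile by level, the demethylase median was 0.32. Relative to the decile by transcript length, chosen after the data were seen, the medians reversed to -0.14 for methyltransferases and -0.13 for demethylases, and their difference was -0.0085. In classes by level and length, also chosen after the data were seen, the difference was -0.00296. The cause of these last shifts was not tested. The other values, including those at q under 0.01 or 0.1, with an adjustment above the 25th percentile of level, with a pseudocount of 1 FPKM and without joined regions, stayed within these bounds. Depth is unknown, so no value here has a counting error; every call rests on the authors' error model.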
